A study of Homo sapiens with 10 samples.

Results

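The genes described here are the engine of the cell cycle: the cyclins and the cyclin-dependent kinases (CDKs) they switch on, the inhibitors, phosphatases and kinases that set CDK activity, and the E2F and retinoblastoma (RB) proteins that read it. They were taken from a list of 50 gene symbols, and where a gene had several probe sets the brightest on average stood for it. Of the 50 genes, 39 were measured through a named probe set, among 14884 measured genes in all. CCNA1, CDKN1B, CDKN1C, CDKN2B, CDKN2C, CDKN2D, PKMYT1, SKP2, E2F4, E2F5 and E2F6, which make up the other 11, were not analysed here, so the CDK inhibitors were represented by CDKN2A alone.

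The samples were 5 arrays of parental MCF10A cells and 5 of MCF10A cells knocked out for histone H2A.X. MCF10A is a human mammary epithelial line that is immortal but forms no tumours, and H2A.X is a histone variant that is phosphorylated around DNA double-strand breaks. Both groups were grown for 48 h in the same DMEM/F12 medium with horse serum, EGF, insulin, hydrocortisone and cholera toxin, so growth factor was supplied to both. The labels number the arrays of each group from 1 to 5 without stating whether the numbers stand for independent cultures, or whether the knockout cells were a clone or a pool. The p-values therefore cover the spread among these arrays and no more, and that spread may be technical. H2AX itself was not analysed here, so the genotypes rest on the labels. The series title ties the knockout to the epithelial-mesenchymal transition; the cell cycle genes are part of the same profile.

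Progress through the cell cycle is driven by cyclins that are made and destroyed in turn. D cyclins with CDK4 or CDK6 begin to phosphorylate RB and its relatives p107 (RBL1) and p130 (RBL2) in G1, and E cyclins with CDK2 complete it, which frees activator E2Fs to turn on the genes of DNA synthesis. A and B cyclins with CDK2 and CDK1 carry cells through S phase and into mitosis, when the MuvB complex with B-MYB (MYBL2) and FOXM1 turns on the mitotic genes; in resting cells the same MuvB core joins p130 and a repressor E2F in the DREAM complex, which holds these genes silent. MCF10A is known to have lost the CDKN2A locus and to carry extra copies of MYC.

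The array medians lay between 4.26 and 4.35 (log2), and the first principal component, with 65.8% of the variance, separated the groups. On the second component (7.53% of the variance) knockout replicate 1 was at 20.2, away from the remaining knockout arrays at -9.47 to -2.52. Of 5 measured epithelial markers listed for basal cells 4 rose and 1 fell, and their summed linear signal was 4673.53 to 4943.32 in parental and 8135.47 to 8716.64 in knockout arrays. Those that rose included KRT5 (9.57 ± 0.09 in parental and 10.34 ± 0.11 in knockout arrays, log2 signal, SD, n = 5 each) and EGFR (10.41 ± 0.03 and 11.10 ± 0.06). KRT14 rose most of the listed basal markers, from 8.26 ± 0.13 to 10.85 ± 0.10. The 1 that fell was EPCAM (8.49 ± 0.05 and 6.35 ± 0.25), which is on this list but is not particular to basal cells. Of 9 luminal markers 0 rose and 3 fell, and their summed linear signal was 1843.5 to 2194.27 in parental and 1111.79 to 1306.05 in knockout arrays. The luminal keratin gene KRT18, which made up most of that sum, was well expressed, at 10.65 ± 0.12 and 9.72 ± 0.12. KRT8, another luminal keratin gene, was at 6.40 ± 0.17 and 6.05 ± 0.32 and did not pass. GATA3 was at 7.24 ± 0.06 and 6.80 ± 0.19, while the hormone receptor genes ESR1 and PGR lay under the median of every array. Of 7 fibroblast markers 4 rose and 2 fell, and their summed linear signal was 255.47 to 274.44 in parental and 522.33 to 614.81 in knockout arrays. The part of the basal, luminal and fibroblast markers in the results below was not tested. For endothelial, immune and adipocyte markers, 1 of 8, 1 of 5 and 0 of 4 rose and 0, 2 and 1 fell. Over all genes 15.3% rose and 19.0% fell.

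Most of the cell cycle regulators were higher in the knockout cells. Of the 39 measured genes, 27 rose, 5 fell and 7 did not pass the test (limma, Benjamini-Hochberg over all 14884 genes, adjusted p under 0.05). The 32 called genes are 82.1% of the members, where 34.3% of all genes were called. The rises are 69.2% of the members against 15.3% of all genes, and the falls 12.8% against 19.0%. The median difference was 0.33 on the log2 scale over the members and 0.00 over all genes; since the authors had normalised the arrays, a shift of all transcripts at once would not show. In bulk RNA a larger share of cells in a cycle phase and more RNA per cell cannot be told apart.

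The changes were mostly moderate. The rises of CCNE2, CCNA2 and CCND1 were at least 2-fold, which is 7.69% of the members against 2.81% of all genes (1.31% upward and 1.50% downward, where 0 members fell so far); 13 called genes differed by 0.5 to 1 and 16 by less than 0.5 on the log2 scale. In 28 of the 39 genes (71.8%, against 28.2% of all genes) the 2 groups of arrays did not overlap, with all knockout arrays above all parental arrays in 24 (12.2% of all genes) and below them in 4 (16.0% of all genes). CCND3, CKS1B, FBXO5 and E2F7 passed the test with overlapping groups. Without knockout replicate 1, the array that stood apart, 30 members were called.

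**Figure D1:**
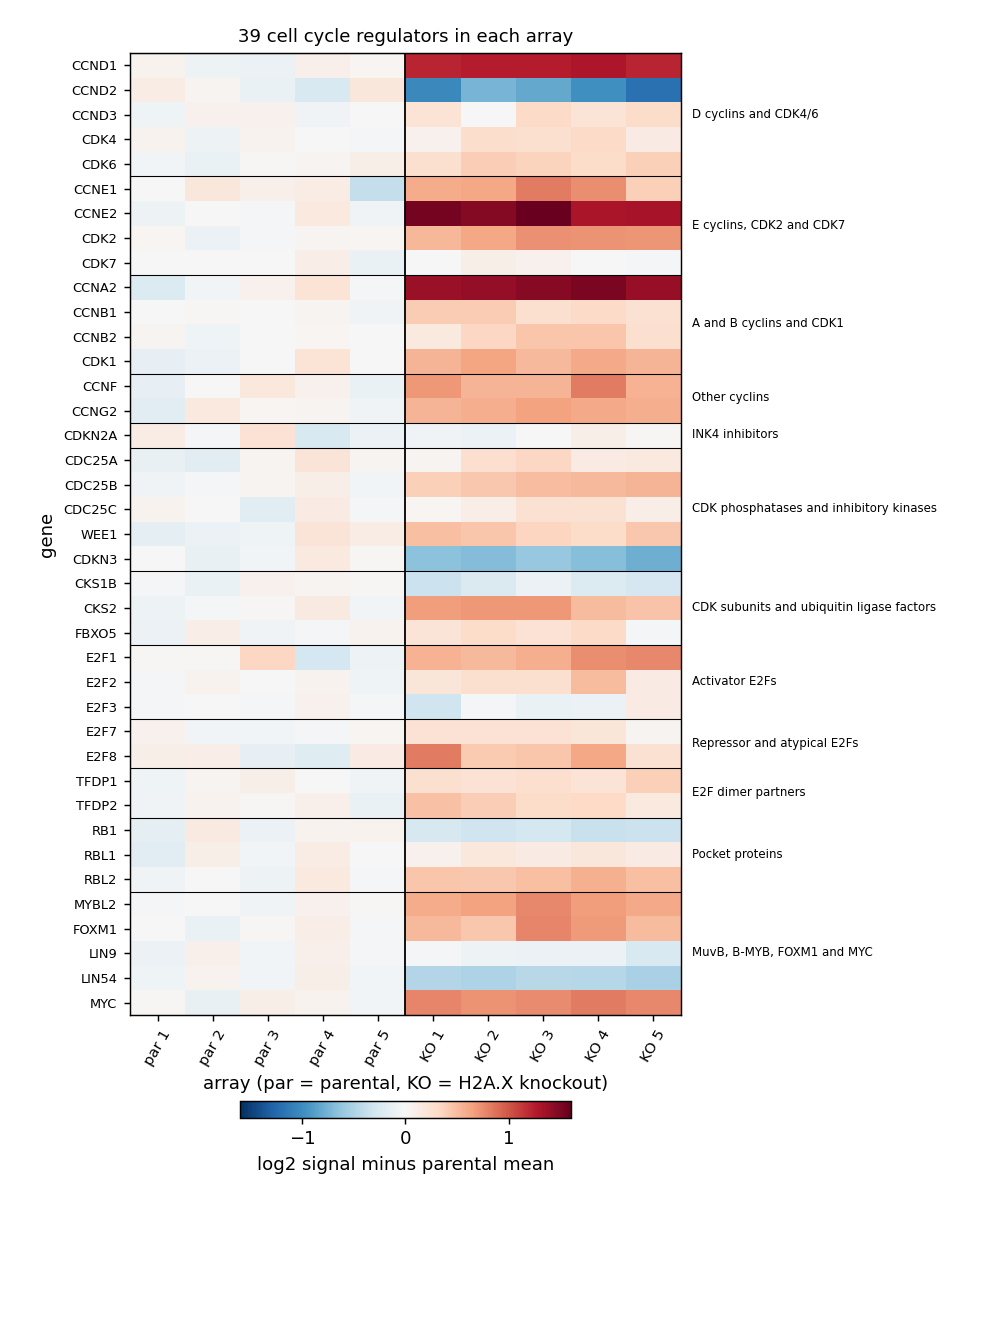
Log2 signal of the 39 measured genes (rows, grouped by role) in each array (columns), as the difference from that gene's parental mean, from blue (lower) to red (higher). The 5 knockout columns are red for most rows and blue for CCND2, CDKN3, LIN54, RB1 and CKS1B, the 5 genes that fell.

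The D cyclins, which couple growth factor signals to the cycle, split by family member. CCND1 read 8.71, 8.58, 8.56, 8.74 and 8.68 in parental arrays 1 to 5 and 9.87, 9.91, 9.91, 9.95 and 9.87 in knockout arrays 1 to 5. The groups did not overlap, a rise of 1.25 ± 0.05 (log2 difference, SE; 2.38-fold; adjusted p = 3.31e-09). CCND2 read 6.74, 6.66, 6.52, 6.39 and 6.80 in parental and 5.59, 5.88, 5.80, 5.64 and 5.42 in knockout arrays. It lay lower in all knockout arrays and fell by 0.96 (SE 0.10, adjusted p = 5.90e-06). A second CCND2 probe set, dimmer, fell from 5.09 ± 0.08 to 4.85 ± 0.09 (adjusted p = 0.00953 over all 16098 named probe sets, of which 33.2% were called). The platform annotation does not state the strand of this probe set, so it may not read the same RNA. CCND3 was at 5.34 ± 0.07 and 5.54 ± 0.13, with knockout replicate 2 (5.33) inside the parental range of 5.28 to 5.41.

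The CCND3 rise of 0.20 was the least firm of the D cyclins (adjusted p = 0.0321). Leaving out 1 array, either parental replicate 1, 4 or 5, or else knockout replicate 1, 3, 4 or 5, ended the call (adjusted p from 0.0507 to 0.0774), as did quantile normalisation (0.0509), an intensity trend (0.0546) or the replicate block (0.0580). The kinases that the D cyclins activate, CDK4 and CDK6, also rose. CDK6 went from 7.53 to 7.72 in parental arrays to 7.88 to 8.03 in knockout arrays, without overlap (0.34 ± 0.06, adjusted p = 0.000377). CDK4 was at 9.43 ± 0.06 and 9.64 ± 0.11 (0.21 ± 0.06, adjusted p = 0.0177), and the lowest knockout array, replicate 1, at 9.50, was barely above the highest parental array at 9.49.

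Whether related genes moved by different amounts was tested on the gap between their log2 signals within each array, for 18 of 22 pairs listed (exact permutation test over samples, two-sided, 252 regroupings, smallest possible p = 0.00794). The gap between CCND1 and CCND2 widened from 2.03 ± 0.19 to 4.24 ± 0.16, by 2.21, and the gap between CCND1 and CCND3 widened by 1.04 (exact p = 0.00794 each, 0.0130 adjusted over the 18 pairs). All knockout arrays were higher for CCND1 and lower for CCND2. The smallest p for that pair follows from these separations and adds nothing to the single calls. The gap between CDK4 and CDK6 changed by -0.13 (exact p = 0.0635, adjusted 0.0879), and it passed only without knockout replicate 4 (-0.16, adjusted p = 0.0440). Of the 18 pairs, 12 passed after adjustment. How many pairs of unrelated genes would pass was not tested, and with 34.3% of all genes called singly, many might.

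**Figure D2:**
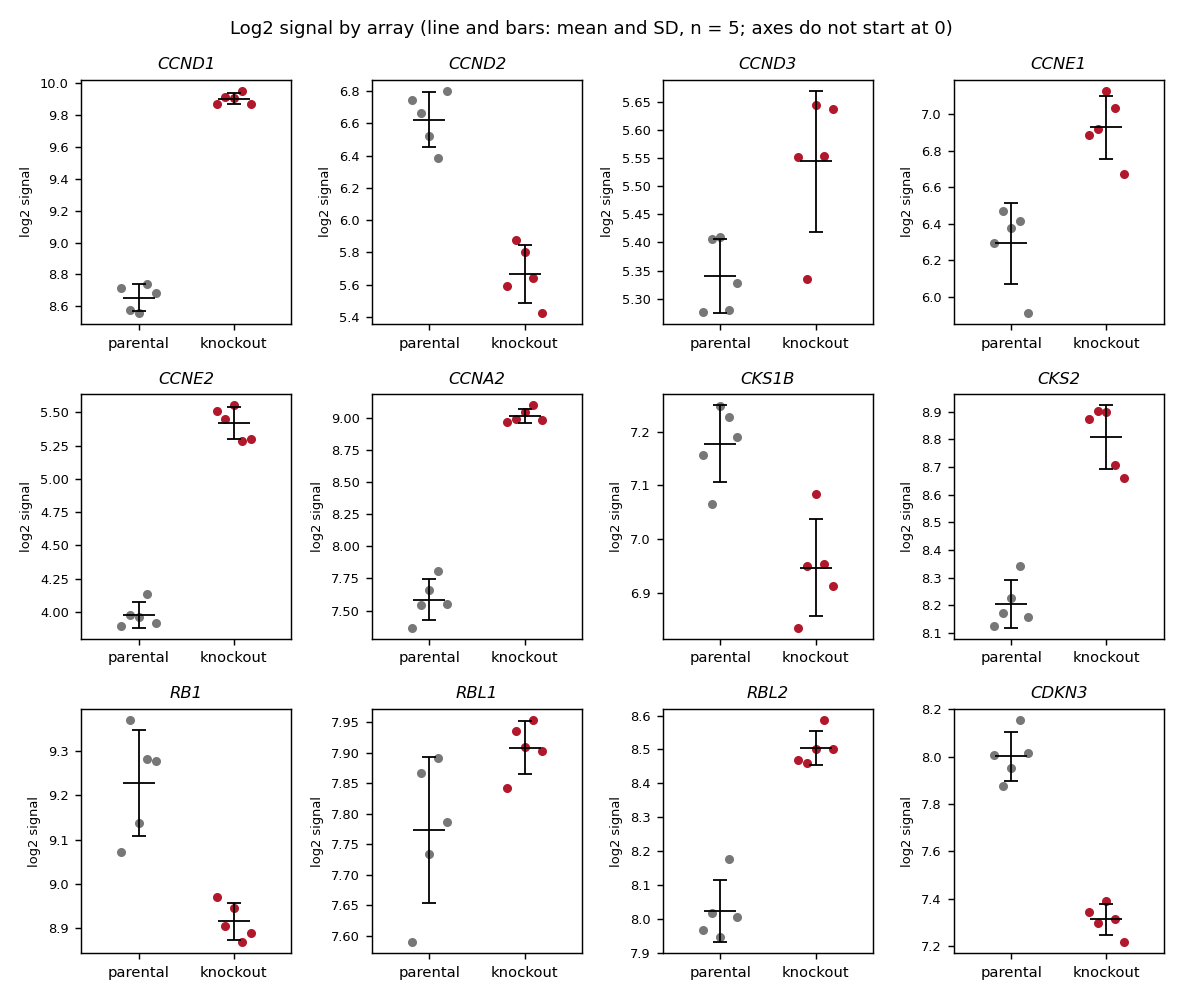
Log2 signal (vertical axes, which do not start at 0) of 12 genes in the 5 parental (grey) and 5 knockout (red) arrays, with mean and SD. Within the D cyclin, CKS and RB families, CCND1, CKS2 and RBL2 sit higher and CCND2, CKS1B and RB1 lower in the knockout arrays.

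The E cyclins and their kinase CDK2, which finish RB phosphorylation and fire the start of S phase, all rose. CCNE2 read 3.90, 3.98, 3.96, 4.13 and 3.91 in parental arrays, under the median of every array, and 5.51, 5.45, 5.55, 5.29 and 5.30 in knockout arrays. The difference was 1.44 ± 0.07 (adjusted p = 8.57e-09), the largest among the members, but differences of genes this dim are compressed, and its fold is uncertain. CCNE1 was at 6.29, 6.47, 6.38, 6.41 and 5.91 in parental and 6.88, 6.92, 7.13, 7.04 and 6.67 in knockout arrays. All knockout arrays were higher, by 0.63 ± 0.11 on average (adjusted p = 0.000502). The 2 E cyclins differed in how far they rose, the gap between them narrowing by 0.81 (exact p = 0.00794, adjusted 0.0130).

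CDK2 went from 7.13 ± 0.05 to 7.79 ± 0.08, a rise of 0.66 ± 0.06 (adjusted p = 1.14e-06), with no overlap. CDK7, whose product phosphorylates the other CDKs as part of the CDK-activating kinase and also serves general transcription, was at 7.90 ± 0.08 and 7.93 ± 0.05. Its difference of 0.03 had a 95% interval of -0.09 to 0.15 (adjusted p = 0.757). CCNH, the cyclin partner of CDK7, was among the further cycle regulators examined and fell by 0.50 (adjusted p = 1.33e-05).

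Among the later cyclins, CCNA2, which acts in S phase and at the entry to mitosis, changed most. It read 7.37, 7.55, 7.66, 7.81 and 7.55 in parental and 8.96, 8.99, 9.04, 9.09 and 8.98 in knockout arrays. The lowest knockout array exceeded the highest parental array by more than the whole spread of either group (1.43 ± 0.08, 2.69-fold, adjusted p = 1.59e-08). The mitotic cyclins CCNB1 and CCNB2 rose less, from 7.37 ± 0.04 to 7.69 ± 0.08 and from 6.90 ± 0.05 to 7.23 ± 0.12 (adjusted p = 0.000359 and 0.00139). The CCNA2 to CCNB1 gap widened by 1.10 (exact p = 0.00794, adjusted 0.0130), so the A cyclin rose further than the B cyclin, while the gap between the B cyclins changed by -0.0025 (exact p = 0.976).

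Their kinase CDK1 read 6.93, 6.97, 7.06, 7.29 and 7.07 in parental and 7.61, 7.69, 7.58, 7.67 and 7.60 in knockout arrays (0.57 ± 0.07, adjusted p = 2.45e-05). The groups did not overlap, and the gap between CDK1 and CDK2 changed by -0.10 (exact p = 0.238), less than the difference of either gene. CCNF, a cyclin that acts as the substrate-binding part of an SCF ubiquitin ligase, rose by 0.63 ± 0.08, from 5.87 to 6.17 in parental arrays to 6.54 to 6.83 in knockout arrays (adjusted p = 2.81e-05). CCNG2, an atypical cyclin linked to cell cycle arrest rather than progress, rose from 5.64 ± 0.12 to 6.23 ± 0.04 (adjusted p = 8.70e-06), and its knockout arrays, at 6.19 to 6.29, did not overlap the parental arrays at 5.47 to 5.80.

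The INK4 inhibitor gene was dim in parental and knockout cells alike. CDKN2A, which encodes p16 and ARF, was at 3.83 ± 0.19 and 3.82 ± 0.07, below each array median (difference -0.01, 95% interval -0.19 to 0.18). Its neighbour MTAP, commonly lost together with it, was at 4.28 ± 0.14 and 4.12 ± 0.07 (adjusted p = 0.104). KLHL9, another gene of the region, read 7.59 ± 0.11 and 7.15 ± 0.09 and fell by 0.43 (adjusted p = 0.000213).

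Genes of opposing enzymes that set the inhibitory phosphates on CDK1 and CDK2 rose. CDC25 phosphatases remove these phosphates, and WEE1 adds them. CDC25B read 8.90, 8.93, 9.01, 9.06 and 8.91 in parental and 9.34, 9.40, 9.45, 9.48 and 9.51 in knockout arrays, with no overlap (0.47 ± 0.06, adjusted p = 1.99e-05). The opposing kinase gene WEE1 also rose, from 7.11 ± 0.15 to 7.50 ± 0.08 (adjusted p = 0.00103), and its lowest knockout array (7.40) was above the highest parental array (7.31).

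The other CDC25 genes did not pass. CDC25A was at 5.60 ± 0.15 and 5.78 ± 0.11 (difference 0.19, adjusted p = 0.101), but passed without parental replicate 4 (0.24, adjusted p = 0.0354) and without dim genes (adjusted p = 0.0498). CDC25C was at 6.60 ± 0.11 and 6.75 ± 0.10 (difference 0.15, 95% interval -0.0018 to 0.30). The CDC25A to CDC25B gap changed by -0.29 (exact p = 0.00794, adjusted 0.0130). CDKN3, a phosphatase that takes off the activating phosphate of CDK2 and CDK1, went the other way from most members. It lay between 7.88 and 8.15 in parental arrays and read 7.35, 7.30, 7.39, 7.31 and 7.22 in knockout arrays, and fell by 0.69 (SE 0.06, adjusted p = 1.85e-06), the largest fall after CCND2.

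**Figure D3:**
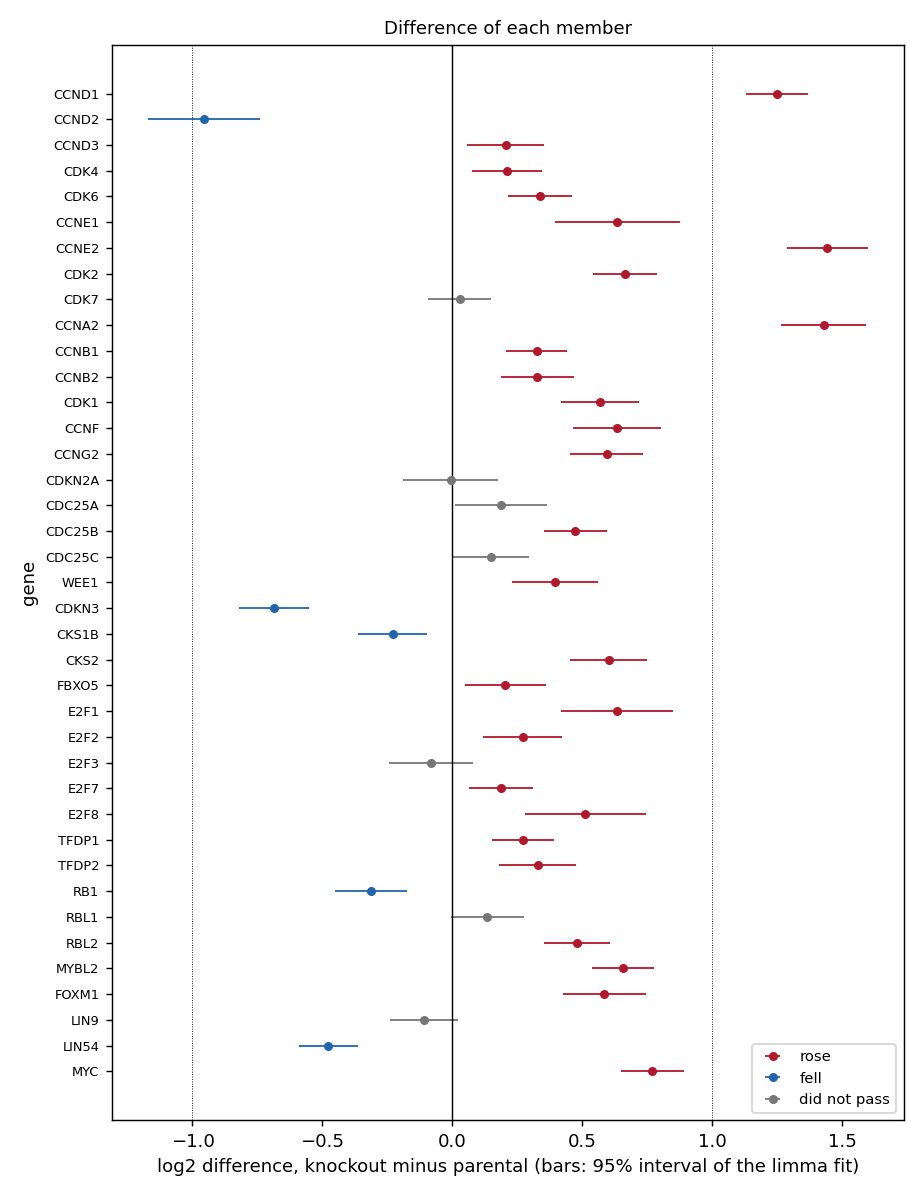
Log2 difference, knockout minus parental, of each of the 39 genes with its 95% interval from the limma fit; dotted lines mark a 2-fold change. CCNE2, CCNA2 and CCND1 lie beyond the upper line, and CCND2 at -0.96 just inside the lower.

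The genes of the small CDK-binding proteins CKS1 and CKS2, which help CDKs reach their substrates, diverged; CKS1 also helps the SCF ligase bind the inhibitor p27. CKS1B read 7.16, 7.07, 7.25, 7.23 and 7.19 in parental and 6.84, 6.95, 7.08, 6.95 and 6.91 in knockout arrays, and fell by 0.23 (SE 0.06, adjusted p = 0.00942). The groups touched at one array each, knockout replicate 3 and parental replicate 2. CKS2 read 8.13, 8.17, 8.23, 8.34 and 8.16 in parental and 8.87, 8.90, 8.90, 8.71 and 8.66 in knockout arrays (0.60 ± 0.07, adjusted p = 1.31e-05). The gap between these genes widened by 0.83 (exact p = 0.00794, adjusted 0.0130). As the 2 genes were called in opposite directions, the test of their gap adds little to the single calls.

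The stretches before the starts of the CKS genes are shown because the 2 genes moved in opposite directions while carrying the same pair of elements, and CCNB2 is added as a mitotic cyclin gene with that pair. The elements are the CCAAT box, bound by NF-Y, and the cell cycle homology region (CHR), searched as TTTGAA or TTCGAA, which MuvB binds through LIN54. Each stretch is the 80 bases just upstream of the RefSeq gene start in GRCh38.p14, 5′ to 3′ on the strand of the gene, with matches on either strand in capitals. They lie at chr15:59105066-59105145 (CCNB2, plus strand), chr9:89311115-89311194 (CKS2, plus strand) and chr1:154974601-154974680 (CKS1B, plus strand), outside the annotated genes.
CCNB2: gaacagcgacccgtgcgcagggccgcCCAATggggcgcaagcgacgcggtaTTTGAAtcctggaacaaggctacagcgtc
CKS2: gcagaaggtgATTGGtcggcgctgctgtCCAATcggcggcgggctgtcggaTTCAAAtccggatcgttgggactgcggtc
CKS1B: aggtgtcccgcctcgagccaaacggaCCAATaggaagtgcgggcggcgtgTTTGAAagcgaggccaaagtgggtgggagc
The CHR match began 29 bases before the start in CCNB2 and CKS2 and 30 in CKS1B, and in CKS2 it was on the opposite strand. A CCAAT box lay upstream of it, beginning 54, 52 and 54 bases before the start. CKS2 alone had a further CCAAT match in the stretch, on the opposite strand, beginning 70 bases before the start. CCNB2 and CKS2 rose and CKS1B fell.

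FBXO5 encodes EMI1, an inhibitor of the anaphase-promoting complex that protects the A cyclin from destruction. It was at 5.38 to 5.58 in parental and 5.45 to 5.78 in knockout arrays, with knockout replicate 5 inside the parental range (0.20 ± 0.07, adjusted p = 0.0425). Leaving out 1 array, either parental replicate 1, 3, 4 or 5, or else knockout replicate 1, 2, 3 or 4, ended this call (adjusted p from 0.0517 to 0.0993). It also ended with quantile normalisation (0.0677), an intensity trend (0.0598) and the replicate block (0.0639).

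Of the activator E2Fs, which switch on the S phase genes, E2F1 rose most. It read 5.77, 5.77, 6.07, 5.47 and 5.67 in parental and 6.30, 6.27, 6.33, 6.49 and 6.52 in knockout arrays. The groups did not overlap (0.63 ± 0.10, adjusted p = 0.000212). E2F2, dim in each group (the median gene mean was 5.49), went from 5.08 ± 0.06 to 5.35 ± 0.14 (adjusted p = 0.00857). E2F3 was at 6.84 ± 0.04 and 6.75 ± 0.16, a difference of -0.08 with a 95% interval of -0.25 to 0.08 (adjusted p = 0.451). The E2F1 to E2F3 gap changed by 0.72 (exact p = 0.00794, adjusted 0.0130).

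The E2F1 to E2F2 gap changed by 0.36 (exact p = 0.0317, adjusted 0.0476). This pair no longer passed without parental replicate 1 (0.38, adjusted p = 0.0595), 2 (0.35, 0.0595), 4 (0.28, 0.0714) or 5 (0.36, 0.0549), or without knockout replicate 1 (0.37, 0.0595) or 5 (0.30, 0.0659).

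The atypical E2Fs, E2F7 and E2F8, which repress E2F1 and its targets late in S phase, rose too. E2F8 read 5.40, 5.42, 5.18, 5.12 and 5.44 in parental and 6.14, 5.73, 5.76, 5.93 and 5.55 in knockout arrays, all knockout arrays being higher (0.51 ± 0.11, adjusted p = 0.00206). E2F7 reached at most 7.11 in parental arrays and read 7.28, 7.27, 7.28, 7.24 and 7.08 in knockout arrays, so only knockout replicate 5 overlapped (0.19 ± 0.06, adjusted p = 0.0213). Its call ended when parental replicate 2 (adjusted p = 0.0528), parental replicate 3 (0.0527) or knockout replicate 2 (0.0511) was left out, and with the replicate block (0.0511). E2F8 rose further than E2F7 in log2 signal, their gap changing by -0.32 (exact p = 0.00794, adjusted 0.0130). The parental mean of E2F8 (5.31) lay under the median gene mean of 5.49, so the size of its rise is uncertain.

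The DP proteins pair with E2Fs to bind DNA. TFDP1 went from 6.57 ± 0.06 to 6.84 ± 0.07 (adjusted p = 0.00166) and TFDP2 from 7.96 ± 0.08 to 8.29 ± 0.12 (adjusted p = 0.00188). Neither overlapped between groups, and the gap between them changed by -0.06 (exact p = 0.532).

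The RB family, which restrains the E2Fs, showed a fall, a rise and a member that did not pass. RB1 read 9.07, 9.37, 9.14, 9.28 and 9.28 in parental and 8.97, 8.91, 8.95, 8.87 and 8.89 in knockout arrays. All knockout arrays were lower, and RB1 fell by 0.31 (SE 0.06, adjusted p = 0.00173). RBL2 read 7.97, 8.02, 7.95, 8.18 and 8.01 in parental and 8.47, 8.46, 8.50, 8.59 and 8.50 in knockout arrays. Its p130 product, which was not measured, is the pocket protein most linked to resting cells. The RBL2 RNA signal was higher in every knockout array (0.48 ± 0.06, adjusted p = 2.44e-05).

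RBL1, the p107 gene and itself a known E2F target, was at 7.59 to 7.89 in parental and 7.84 to 7.95 in knockout arrays, a difference of 0.14 with a 95% interval of -0.0038 to 0.27 (adjusted p = 0.131). It passed with quantile normalisation (0.17, adjusted p = 0.0369). The gap between RB1 and RBL1 changed by -0.45 and that between RBL1 and RBL2 by -0.34 (exact p = 0.00794 and adjusted p = 0.0130 each), so the 3 family members did not move together.

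E2F sites were searched as TTTCCCGC, TTTCGCGC, TTTGCCGC and TTTGGCGC on both strands. The stretches of E2F1, E2F2, CDC25A and RBL1 are shown because they hold such a match close to the start while the calls of the genes differed. E2F1 and E2F2 rose, and CDC25A and RBL1 did not pass. All 4 differences were positive, and those of E2F2, CDC25A and RBL1 (0.27, 0.19 and 0.14) were not tested against each other. The stretches were cut like those above, 80 bases upstream of the gene start on the strand of the gene, with E2F and CCAAT matches in capitals. All 4 genes are on the minus strand, at chr20:33686386-33686465 (E2F1), chr1:23531234-23531313 (E2F2), chr3:48188418-48188497 (CDC25A) and chr20:37095998-37096077 (RBL1) of GRCh38.p14.
E2F1: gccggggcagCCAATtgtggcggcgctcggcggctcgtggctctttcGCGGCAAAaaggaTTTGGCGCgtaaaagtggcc
E2F2: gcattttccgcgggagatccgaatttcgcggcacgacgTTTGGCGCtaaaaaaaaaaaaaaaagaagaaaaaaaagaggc
CDC25A: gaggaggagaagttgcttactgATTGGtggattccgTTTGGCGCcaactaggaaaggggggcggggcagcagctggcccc
RBL1: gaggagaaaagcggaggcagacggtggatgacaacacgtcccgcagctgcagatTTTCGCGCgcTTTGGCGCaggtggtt
All 4 carried TTTGGCGC, beginning 20, 42, 44 and 16 bases before the start. E2F1 had a second match on the opposite strand and RBL1 a second on the same strand.

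RefSeq promoter windows, 250 bases before to 50 after a gene start, matched 31 of the 39 measured genes. An E2F match was found in 7 of the 31 (22.6%) and in 3.99% of the 27305 genes in the table, counting a gene with a match at any of its starts. The 7 were CDK1, CDC25A, E2F1, E2F2, E2F3, TFDP1 and RBL1, of which 4 rose and 3 did not pass. A CHR match was in 14 of 31 (45.2%, against 19.5%) and a CCAAT box in 18 of 31 (58.1%, against 39.7%). Among the 4 genes that fell and had an entry, CDKN3, CKS1B and LIN54 had a CHR match and 0 had an E2F match; among the 20 that rose, 8 had a CHR and 4 an E2F match. A match is a run of letters in the window and was not tested as a binding site.

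**Figure D4:**
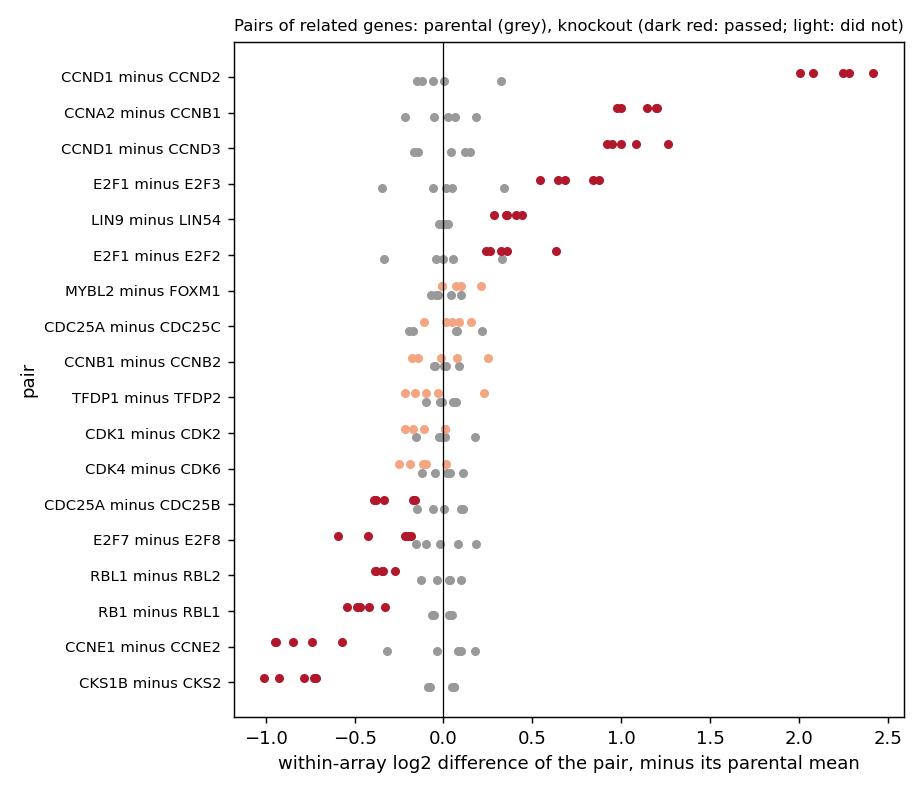
Gap between the log2 signals of 18 pairs of related genes in each array, after subtracting the pair's parental mean; grey points are parental arrays, dark red points knockout arrays of the 12 pairs that passed, light points those of the 6 that did not. The CCND1 to CCND2 gap widened most (2.21), and CKS1B against CKS2 moved furthest in the other direction (-0.83).

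The genes that drive the mitotic programme rose, while parts of their DNA-binding scaffold fell. MYBL2, which encodes B-MYB, read 6.83, 6.86, 6.82, 6.94 and 6.89 in parental and 7.46, 7.51, 7.64, 7.54 and 7.48 in knockout arrays (0.66 ± 0.05, adjusted p = 8.20e-07). FOXM1 went from 6.36 ± 0.08 to 6.95 ± 0.14 (0.58 ± 0.07, adjusted p = 3.27e-05). Neither gene's groups overlapped, and the gap between them changed by 0.07 (exact p = 0.183).

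LIN54, the MuvB subunit that binds the CHR, read 7.16, 7.29, 7.18, 7.32 and 7.19 in parental and 6.76, 6.73, 6.78, 6.78 and 6.71 in knockout arrays. It was lower in every knockout array and fell by 0.48 (SE 0.05, adjusted p = 1.02e-05). LIN9, another subunit, was at 6.88 ± 0.08 and 6.77 ± 0.08 (difference -0.11, 95% interval -0.24 to 0.02, adjusted p = 0.200), and the gap between the LIN genes changed by 0.37 (exact p = 0.00794, adjusted 0.0130). The other MuvB subunits came from the list of further regulators and are named after their values were seen. LIN37 fell from 8.49 ± 0.11 to 7.51 ± 0.15 and LIN52 from 5.75 ± 0.17 to 5.18 ± 0.14, while RBBP4, a histone-binding protein shared with other complexes, rose by 0.16 (adjusted p = 6.65e-07, 0.000244 and 0.0295).

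MYC, a growth-promoting transcription factor that induces CCND2, CDK4 and E2F genes among its known targets, read 9.74, 9.61, 9.82, 9.78 and 9.68 in parental and 10.51, 10.45, 10.48, 10.56 and 10.49 in knockout arrays. All knockout arrays were higher (0.77 ± 0.06, adjusted p = 2.44e-07). MXD1, which competes with MYC for their shared partner MAX and represses the same genes, fell from 8.22 ± 0.11 to 6.53 ± 0.06, by 1.70 (adjusted p = 7.69e-10). MAX itself fell by 0.26 (adjusted p = 0.00477), and MXI1 and MGA, other members of the network, rose by 0.21 and 0.43.

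In the wider pathway, 37 of 44 further cycle regulators were measured; 12 rose, 11 fell and 14 did not pass, with a median difference of 0.00; over all genes tested, 15.3% rose and 19.0% fell. Besides MXD1 and LIN37, the largest changes were rises of UHRF1 (0.97), which maintains DNA methylation through replication, and CDC7 (0.72), the kinase that fires replication origins. CDKN1A, which encodes p21, was not analysed here. The lists of genes known to lie downstream are read against the same 15.3% and 19.0%, without a test of the difference. Of 21 E2F target genes of G1/S, 19 rose and 0 fell, with a median of 1.06; RRM2 (2.19), TYMS (1.82), GINS2 (1.71) and MCM10 (1.61) rose most, while CDC6 was at -0.07 (adjusted p = 0.642). Of 23 DREAM and FOXM1 target genes of G2/M, 17 rose and 0 fell, with a median of 0.40, led by BIRC5 (1.24), CDCA3 (1.00), TOP2A (0.91) and KIF20A (0.85); the proliferation marker MKI67 rose by 0.78. These lists were written with earlier results of the data known. CDC20, PLK1 and AURKA are on both the list of further regulators and the G2/M list and are counted in each.

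**Figure D5:**
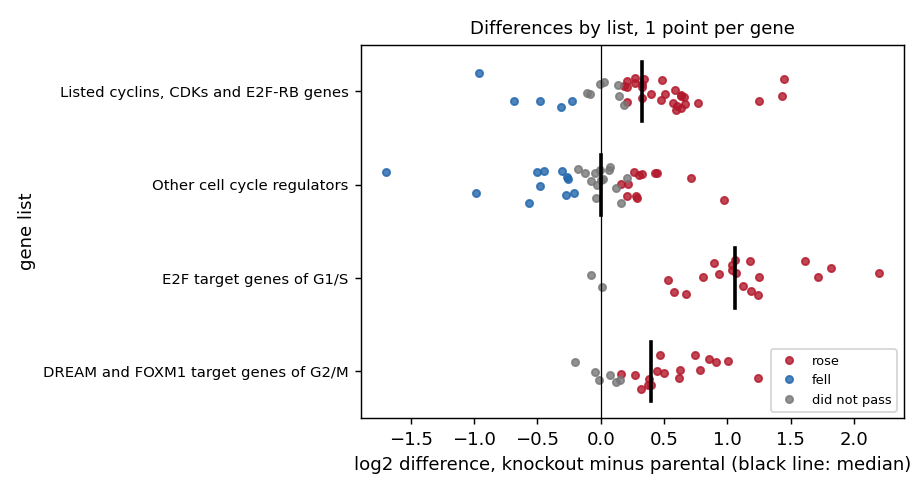
Log2 difference, knockout minus parental, of each gene (1 point per gene, jittered vertically) in 4 lists, with the list's median as a black line. The medians were 0.33 for the 39 described genes, 0.00 for further regulators, 1.06 for G1/S targets and 0.40 for G2/M targets. CDC20, PLK1 and AURKA are shown among both the further regulators and the G2/M targets.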

How the data were processed

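Each array was hybridised with biotin-labelled RNA made from 1 ug of total RNA, per the labels' protocols. The authors deposited a normalised log2 signal for each probe set and array, a scale judged from the values (1.13 to 13.87). The submitters' processing notes name Affymetrix Expression Console and Partek 6.6, and the summarisation method is not given in the sources used here. Platform annotation named 16098 of 53617 probe sets, with current symbols taken through Entrez identifiers from RefSeq (GRCh38.p14); 37519 were unnamed. The probe set with the highest mean stood for each of 14884 genes.

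Differences are knockout minus parental, fitted over all genes with lmFit and eBayes (limma 3.58.1, R 4.3.3), without covariate or filter, with Benjamini-Hochberg adjustment over all genes and calls at adjusted p under 0.05. Pairs of genes were compared by exact permutation of samples in Python 3.11.15. The number of arrays limits the precision: the median SE of a log2 difference was 0.08 over all genes and 0.07 over the members. In simulated data with the spread of the 14884 genes, 81% of genes changed by 0.5 and 98% of those changed by 1 (log2) were recovered, and 14 unchanged genes were called. Only a small part of the genes was changed there, with independent normal noise, whereas 34.3% of genes were called in the real data. The adjustment therefore worked under another setting, and these shares do not give the sensitivity of the real comparison.

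All measured members are named. Of the other lists, the called genes with the 4 largest differences and a few fixed markers are named where a result turns on them; further ones were chosen after their values were seen. The members and lists were chosen with earlier results of these data known. Alternatives were quantile normalisation, centring, omission of dim genes, an intensity trend, the mean of probe sets, each array left out, and the replicate number as a block.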

Additional observations from a re-analysis of the deposited data

Results flagged for a closer look

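In 2 of the 78 groups of 5 arrays checked (39 genes, 2 groups each), an array stood apart from the other 4 of its group; chance flags about 1 in 20. Both were knockout replicate 5. E2F7 was at 7.08 there and at 7.24 to 7.28 in the other knockout arrays. TFDP1 was at 6.96 there and at 6.78 to 6.83 in the others.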

How the results depend on the processing

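Under the 16 alternatives, 33 of the 39 genes kept direction and call; the exceptions were CCND3, FBXO5, E2F7, CDC25A, RBL1 and CDKN2A. With an array left out, 30 to 31 members were called, 25 to 26 higher and 5 lower, 3 to 4 of them at least 2-fold, and 11 to 13 pairs passed. CDKN2A, dim in both groups, ran from -0.069 to 0.0508, the CCNB1 to CCNB2 gap from -0.0651 to 0.0417 (0.0134 with quantile normalisation) and the CDC25A to CDC25C gap from -0.0090 to 0.093, all changing sign; the cause was not tested. Same-numbered arrays of the 2 groups did not deviate together throughout (correlations of deviations -0.01 to 0.20, 2 of 5 highest with their own number), so the numbers were not taken as pairs. With the replicate block 29 members were called, and 4972 genes against 5108; CCND3, FBXO5 and E2F7 lost their call. Without dim genes CCNE2, E2F2 and CDKN2A were not tested. Both group means of these genes lay under the median gene mean of 5.49, and differences between dim signals are compressed. The parental means of CCND3, FBXO5 and E2F8 also lay under that median, and their knockout means above it.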
